A study of Mus musculus with 2 samples.

Results

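The genes described here are 9 regulators of interferon and cytokine signalling, Ifngr1, Stat3, Stat2, Irf9, Irf7, Irf1, Irf8, Socs1 and Socs3, chosen by symbol from the 27998 gene IDs of the count matrices. All 9 were found, each with 1 gene ID. They were measured by droplet single-cell RNA sequencing in CD45- cells, that is cells without the leukocyte surface protein, from dissociated mouse lung. The lungs came from mice 7 days after an intravenous injection of labelling 4T1 cells, mouse mammary carcinoma cells able to seed lung metastases. The labelling version is known to release a cell-penetrating mCherry protein that nearby cells take up. Cells were sorted into 2 groups, Cherry_Positive and Cherry_Negative, with 1 library each, so both groups come from lungs that carried the tumour cells. The study's title concerns radiation of healthy lung, but the labels do not say whether these mice were irradiated, nor how many mice were pooled, nor their strain or age.

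Interferons and many cytokines signal through Janus kinases and STAT proteins. Interferon gamma binds a receptor whose ligand-binding chain is Ifngr1, and this switches on Irf1, guanylate-binding proteins and chemokines. Type I interferons act through a complex that holds Stat2 and Irf9, called ISGF3, which switches on antiviral genes and Irf7, the factor that amplifies interferon genes. Stat3 acts downstream of the interleukin-6 family, whose receptors share the gp130 chain. Socs1 and Socs3 are feedback inhibitors made in response to the same signals, Socs1 mainly against interferon receptors and their kinases and Socs3 mainly against gp130. Irf8 is known best as a factor of myeloid cells and lymphocytes.

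The Cherry_Positive library held 10094853 unique molecular identifiers (UMIs, counts of RNA molecules) in 1826 barcodes and the Cherry_Negative library 11632459 in 2861, of which 1766 and 2804 cells were kept. Of the barcodes, 13 occurred in both libraries. The cells formed 25 clusters, which were named by marker genes. With at least 50 cells in each library, 6 classes could be compared. These were alveolar fibroblasts (868 Cherry_Positive and 466 Cherry_Negative cells), adventitial fibroblasts (126 and 114), myofibroblasts (243 and 131), pericytes (64 and 50), general capillary cells (128 and 981) and Car4 capillary cells (81 and 304). Alveolar fibroblasts of the libraries lay mostly in different clusters, and much of the signal of Irf7, Irf8 and Socs1 in Cherry_Positive myofibroblasts and general capillary cells came from 1 cluster each. The ratios within shared clusters are given after those of the class. Levels are given as CPM, the gene's UMIs as a share of all UMIs of the class, in counts per 10 to the power 6, with 95% Poisson intervals, and are compared within a gene and not between genes. With 1 library per group there is no replicate and no test of the condition, and every interval covers counting error only. Free RNA of the alveolar type 2 cell surfactant genes differed between the libraries, at 183 CPM in Cherry_Positive and 1961 CPM in Cherry_Negative alveolar fibroblasts. In general and Car4 capillary cells haemoglobin RNA stood at 5895 and 9160 CPM in Cherry_Positive, against 15.4 and 32.2 CPM in Cherry_Negative. A single Cherry_Positive cell of each class held 97.5% and 98.5% of it.

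Since several of the 9 genes were high in the same cells, promoters are shown for Irf7, on whose levels the results turn. They are also shown for 4 of the 5 members with a window that held a match. Stat2, whose response element match lies on the other strand, is not printed. The gamma-activated site core reads the same on both strands, so its matches have no strand. The sequences are from RefSeq on GRCm38.p6, read along the gene's strand from 250 bases before to 50 bases after its start, and all 9 genes were matched, with 12 windows in all. Capitals mark matches to the core of the interferon-stimulated response element, GAAANNGAAA, known as the sequence bound by IRFs and ISGF3, or to the core of the gamma-activated site, TTCNNNGAA, known as the sequence bound by STAT dimers, both sought on both strands.
Irf7: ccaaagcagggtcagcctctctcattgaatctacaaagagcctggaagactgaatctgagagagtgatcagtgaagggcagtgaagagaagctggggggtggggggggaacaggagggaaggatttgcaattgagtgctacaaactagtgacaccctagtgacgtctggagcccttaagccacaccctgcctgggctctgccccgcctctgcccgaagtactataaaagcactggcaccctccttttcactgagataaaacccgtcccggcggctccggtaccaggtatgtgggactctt
Socs1: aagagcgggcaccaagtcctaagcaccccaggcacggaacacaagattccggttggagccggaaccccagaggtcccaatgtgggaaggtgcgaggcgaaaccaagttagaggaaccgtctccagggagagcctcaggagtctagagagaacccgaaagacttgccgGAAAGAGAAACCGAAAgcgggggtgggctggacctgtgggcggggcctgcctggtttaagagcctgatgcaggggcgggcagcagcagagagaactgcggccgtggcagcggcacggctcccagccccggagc
Irf8: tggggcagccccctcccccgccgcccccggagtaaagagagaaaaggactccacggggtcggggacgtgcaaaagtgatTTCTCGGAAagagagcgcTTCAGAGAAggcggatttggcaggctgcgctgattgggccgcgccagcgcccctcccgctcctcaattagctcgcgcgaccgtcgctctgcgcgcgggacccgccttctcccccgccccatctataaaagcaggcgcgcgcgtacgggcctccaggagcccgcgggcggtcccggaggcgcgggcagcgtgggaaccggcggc
Irf1: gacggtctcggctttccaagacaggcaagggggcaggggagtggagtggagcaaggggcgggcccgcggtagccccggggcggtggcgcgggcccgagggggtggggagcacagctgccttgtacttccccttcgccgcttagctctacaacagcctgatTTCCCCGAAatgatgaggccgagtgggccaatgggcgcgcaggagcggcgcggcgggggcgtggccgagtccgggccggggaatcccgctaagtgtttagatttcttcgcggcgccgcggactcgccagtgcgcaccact
Socs3: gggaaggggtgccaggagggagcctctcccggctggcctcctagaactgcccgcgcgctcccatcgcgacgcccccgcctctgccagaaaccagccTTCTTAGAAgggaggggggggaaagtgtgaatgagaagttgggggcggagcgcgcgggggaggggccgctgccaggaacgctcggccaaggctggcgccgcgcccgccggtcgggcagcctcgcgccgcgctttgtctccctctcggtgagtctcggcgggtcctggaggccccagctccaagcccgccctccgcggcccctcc
The Irf7 window (chr7:141266375-141266674, minus strand) held no match. The Socs1 window (chr16:10785487-10785786, minus strand) held 2 response element matches that overlap each other, at -83 and -77 from the start. The Irf8 window (chr8:120736108-120736407, plus strand) held 2 gamma-activated site matches, at -171 and -153. The Irf1 window (chr11:53769764-53770063, plus strand) held 1 at -90, and the Socs3 window (chr11:117969317-117969616, minus strand) held 1 at -154. Irf1 and Irf8 have a second window each, and neither held a match. Stat2 had 1 response element match on the other strand, and no match lay in the windows of Irf9, Stat3 and Ifngr1. Positions are from the RefSeq start, which can differ from that of the GENCODE gene spans printed below. The Socs3 window and both Irf9 windows lie wholly inside those spans, so they do not cover the bases before the GENCODE start. No window held both motifs. The response element core was thus found in 2 of 9 members, beside 3.99% of 27018 genes, and the gamma-activated site core in 3 of 9, beside 9.55%. A match is a description of letters and not a site shown to be bound.

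Ifngr1 (chr10:19591949-19610229 on GRCm38, plus strand) was highest in alveolar fibroblasts in both libraries, among classes with at least 20 cells, and there it was lower in Cherry_Positive cells. Alveolar fibroblasts had 297 CPM in Cherry_Positive (281 to 313) and 478 CPM in Cherry_Negative (444 to 513), a ratio of 0.621 (0.568 to 0.679). At least 1 UMI was found in 67.2% of Cherry_Positive and 72.3% of Cherry_Negative cells of the class. Cells with at least 2000 UMIs were then thinned to that depth, which left out 17 Cherry_Positive and 62 Cherry_Negative cells of the class. The shares were 41.5% of 851 and 56.9% of 404 cells. Cells below 2000 UMIs were left out in the same way wherever thinning to that depth is named. Pericytes had 187 CPM in Cherry_Positive and 314 CPM in Cherry_Negative, a ratio of 0.596 (0.379 to 0.938). In the other compared classes the level lay between 114 and 190 CPM in Cherry_Positive and between 151 and 218 CPM in Cherry_Negative, and each interval of the ratio held 1. Among Cherry_Positive classes the next level below alveolar fibroblasts was that of general capillary cells, 190 CPM, and the intervals of the classes below overlapped from neighbour to neighbour down to type 2 cells (27.7 CPM). Type 2 cells of the Cherry_Negative library, the surfactant makers of the alveolus, had 31.3 CPM. Carcinoma-like cells of the Cherry_Positive library, a cluster of 130 cells led by S100a4 and cell cycle genes, had 24.96 CPM, with a UMI in 17.7% of cells.

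Stat3 (chr11:100885098-100939540, minus strand) was higher in Cherry_Positive alveolar fibroblasts. They had 167 CPM (156 to 180), against 107 CPM (92 to 125) in Cherry_Negative, a ratio of 1.56 (1.32 to 1.85). In the other 5 classes the ratio lay between 1.07 and 1.58, above 1 in each, and each interval held 1. Across the 6 classes it lay at 88.2 to 179 CPM in Cherry_Positive and at 56.1 to 134 CPM in Cherry_Negative, and the intervals of neighbouring classes overlapped all along the order. It was present in type 2 cells too, where 54.5% of 22 Cherry_Positive and 50.6% of 447 Cherry_Negative cells held a UMI, at 99.8 and 85.6 CPM. The gene overlaps Stat5a on the other strand, and the labels do not say how reads shared by both were counted.

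The ISGF3 subunits Stat2 and Irf9 had intervals of the ratio that held 1 in every class counted. Stat2 (chr10:128270559-128292849, plus strand) had 30.5 CPM in Cherry_Positive and 21.3 CPM in Cherry_Negative alveolar fibroblasts, a ratio of 1.43 (0.979 to 2.15). In pericytes, with 5 and 2 UMIs, it was too sparse to be counted. Irf9 (chr14:55603571-55610030, plus strand) had 45.8 CPM in Cherry_Positive and 46.4 CPM in Cherry_Negative alveolar fibroblasts, a ratio of 0.987 (0.754 to 1.30). Its largest ratio was in pericytes, with 119 and 55.0 CPM from 28 and 7 UMIs, at 2.17 (0.924 to 5.87), so the counts cannot show a difference there. Adventitial fibroblasts had 42.4 and 21.6 CPM, a ratio of 1.96 (0.999 to 4.15). Irf9 shares its strand with the overlapping gene Rnf31, so its counts are uncertain.

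Irf7 (chr7:141262706-141266481, minus strand) was higher in Cherry_Positive cells in all 6 classes, with an interval above 1 in 5. In 2 of the classes this depended on the clustering. When each library was clustered by itself its log2 ratio was -0.07 in myofibroblasts and -0.35 in general capillary cells, and with the clusters weighted alike in both libraries it was -0.24 in general capillary cells. Alveolar fibroblasts had 138 CPM in Cherry_Positive (127 to 149) and 32.0 CPM in Cherry_Negative (24 to 42), a ratio of 4.32 (3.24 to 5.86). The ratio was 3.45 (2.07 to 6.08) in adventitial fibroblasts, at 112 and 32.4 CPM. It was 2.94 (1.90 to 4.79) in myofibroblasts, at 184 and 62.6 CPM. Pericytes, with 208 and 62.8 CPM, had a ratio of 3.32 (1.56 to 8.11). General capillary cells had 120 CPM in Cherry_Positive and 75.5 CPM in Cherry_Negative, a ratio of 1.59 (1.17 to 2.14). That Cherry_Negative level was the highest of the 6 classes, but its interval overlapped those of pericytes and myofibroblasts. Car4 capillary cells had 61.5 and 46.8 CPM, and the interval, 0.716 to 2.32, held 1. Among Cherry_Positive classes with at least 20 cells pericytes and myofibroblasts were highest and overlapped. Among Cherry_Negative classes the order ran down to alveolar fibroblasts with neighbours that overlapped, above type 2 cells at 17.5 CPM. Irf7 overlaps Phrf1 on the other strand.

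Irf1 (chr11:53770014-53778374, plus strand) was high in capillary cells of both libraries, where the interval of the ratio held 1, and was higher in Cherry_Positive pericytes. General capillary cells had 445 CPM in Cherry_Positive and 406 CPM in Cherry_Negative, and Car4 capillary cells 440 and 415 CPM, with ratios of 1.10 (0.944 to 1.27) and 1.06 (0.864 to 1.30). Venous cells of the Cherry_Negative library had 513 CPM, and their interval overlapped that of Car4 capillary cells. In pericytes Irf1 had 778 CPM in Cherry_Positive (669 to 899), the highest among Cherry_Positive classes with at least 20 cells, against 298 CPM in Cherry_Negative (211 to 410), a ratio of 2.61 (1.83 to 3.80). Alveolar fibroblasts had 253 and 196 CPM, a ratio of 1.29 (1.14 to 1.46). Adventitial fibroblasts, at 149 and 173 CPM, and myofibroblasts, at 309 and 259 CPM, had intervals that held 1. Irf1 overlaps Gm17334 on the other strand.

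Irf8 (chr8:120736358-120756694, plus strand) was found in stromal cells as well as in leukocytes. Pericytes had 544 CPM in Cherry_Positive (454 to 647) and 149 CPM in Cherry_Negative (90 to 233), a ratio of 3.65 (2.24 to 6.26). Alveolar fibroblasts had 211 and 119 CPM, a ratio of 1.77 (1.51 to 2.08). General capillary cells had 100 CPM in Cherry_Positive from 50 UMIs and 14.6 CPM in Cherry_Negative from 39 UMIs, a ratio of 6.84 (4.41 to 10.7). Of those 50 UMIs 96.0% lay in the 33 Cherry_Positive cells of cluster 13, where the ratio was 2.21 (1.33 to 3.74). When each library was clustered by itself, Irf8 was not called in this class. In myofibroblasts the 67.3 CPM of Cherry_Positive came from 84 UMIs and the 5.70 CPM of Cherry_Negative from 2, so the ratio of 11.8 had a wide interval (3.17 to 99.2). Cluster 17 held 71.4% of those 84 UMIs, and in cluster 4 the ratio was 4.43 (1.10 to 38.7). Adventitial fibroblasts had 67.2 and 64.8 CPM and a ratio of 1.04 (0.671 to 1.62). Car4 capillary cells held 3 and 2 UMIs and were not counted. For comparison, the few leukocytes in the libraries, 31 Cherry_Positive and 29 Cherry_Negative cells of 2 clusters, had 404 and 193 CPM, and 23 lymphatic cells of the Cherry_Positive library 413 CPM.

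Most fibroblasts and pericytes with an Irf8 UMI held no UMI of core leukocyte genes. Of 412 Cherry_Positive alveolar fibroblasts with an Irf8 UMI, 395 (95.9%) held no UMI of Ptprc, Tyrobp, Laptm5, Coro1a, Cd52 or Cd53, and of 134 Cherry_Negative cells 132 (98.5%) held none. In pericytes these were 44 of 49 and 12 of 13 cells, and in lymphatic cells of the Cherry_Positive library 11 of 11. Ptprc, which encodes CD45, was found in 2 of 868 Cherry_Positive and 1 of 466 Cherry_Negative alveolar fibroblasts, and the 13 general leukocyte markers, of which 1 and 5 were at 0, summed to 29.9 and 45.1 CPM. An Irf8 UMI was held by 47.5% of Cherry_Positive and 28.8% of Cherry_Negative alveolar fibroblasts as sequenced. After thinning to 2000 UMIs the shares varied with the random draw. They were 26.1% and 23.3% in 1 draw, 246 of 851 and 77 of 404 cells in another, and 27.3% and 20.9% as the expectation over all draws. At 1000 UMIs 15.6% and 8.80% held one. In pericytes 58.1% of 62 Cherry_Positive and 30.8% of 26 Cherry_Negative cells did at 2000 UMIs, with expectations of 60.3% and 25.2%. Among cells with little Irf8, the share was 0 of 78 Cherry_Positive and 1 of 222 (0.450%) Cherry_Negative Car4 capillary cells. Median depths before thinning were 4513 and 3128 UMIs in the fibroblasts and 3150 and 2686 UMIs in the Car4 cells. The gene overlaps Gm20388 on the same strand, so its counts are uncertain.

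Socs1 (chr16:10782240-10785536, minus strand) was higher in Cherry_Positive cells in 4 of the 6 classes by an interval above 1. Alveolar fibroblasts had 218 CPM in Cherry_Positive (205 to 232) and 61.4 CPM in Cherry_Negative (50 to 75), a ratio of 3.56 (2.89 to 4.42). Pericytes had 315 CPM from 74 UMIs and 47.1 CPM from 6 UMIs, a ratio of 6.68 (2.93 to 18.8). Myofibroblasts had 110 and 39.9 CPM, a ratio of 2.75 (1.59 to 5.17). This did not hold when each library was clustered by itself (log2 ratio -0.14), for cluster 17 held 77.4% of the Socs1 UMIs of Cherry_Positive myofibroblasts. In cluster 4, shared by both libraries, Socs1 had 33.2 and 23.2 CPM (1.43, 0.643 to 3.60). General capillary cells had 82.2 and 27.4 CPM, a ratio of 3.00 (1.99 to 4.45). Adventitial fibroblasts, whose Cherry_Negative level of 99.1 CPM was the highest of the 6 classes in that library, had 134 CPM in Cherry_Positive and an interval of 0.975 to 1.91. Car4 capillary cells had 20.5 and 21.8 CPM. Type 2 cells had 16.6 CPM in Cherry_Positive from 3 UMIs (3.43 to 48.6), where 13.6% of 22 cells held a Socs1 UMI. In Cherry_Negative they had 2.43 CPM from 9 UMIs (1.11 to 4.61), where 1.57% of 447 cells did, and the intervals overlapped. The median depth of those cells was 6844 and 8164 UMIs. Among alveolar fibroblasts 24.6% of Cherry_Positive and 11.6% of Cherry_Negative cells held a Socs1 UMI after thinning.

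Socs3 (chr11:117966079-117970047, minus strand) went the other way from Socs1, being lower in Cherry_Positive cells of 4 classes. Alveolar fibroblasts had 273 CPM in Cherry_Positive (258 to 288) and 585 CPM in Cherry_Negative (548 to 624), a ratio of 0.466 (0.428 to 0.508). Myofibroblasts had 463 and 843 CPM, a ratio of 0.550 (0.477 to 0.634). Adventitial fibroblasts had 468 and 683 CPM, a ratio of 0.686 (0.594 to 0.791), and general capillary cells 706 and 864 CPM, a ratio of 0.817 (0.728 to 0.914). In pericytes (514 and 550 CPM) and Car4 capillary cells (478 and 480 CPM) the intervals held 1. Venous cells of the Cherry_Negative library, at 1292 CPM, were above every other Cherry_Negative class. After thinning, 32.5% of Cherry_Positive and 52.5% of Cherry_Negative alveolar fibroblasts held a Socs3 UMI.

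Socs3 is also known as a gene that responds fast to handling of tissue, and the sum of other such genes was lower in Cherry_Positive cells of all 6 classes, whether or not Socs3 was. A sum of 15 immediate early and heat shock genes, a list drawn up after the data had been seen, stood at 16568 CPM in Cherry_Positive and 25311 CPM in Cherry_Negative alveolar fibroblasts. It was 19198 and 30164 CPM in myofibroblasts, 17202 and 22401 CPM in adventitial fibroblasts, and 10724 and 13498 CPM in general capillary cells. In Car4 capillary cells and pericytes, where the interval of Socs3 held 1, it was 16308 and 18028 CPM and 12008 and 14615 CPM. The sum was also lower in Cherry_Positive within most shared clusters in which Socs3 was. It was 23295 and 28731 CPM in cluster 2, 20644 and 30679 CPM in cluster 4, 17386 and 22847 CPM in cluster 9, and 7942 and 11463 CPM in cluster 13, where the Socs3 ratios were 0.747, 0.607, 0.629 and 0.699. Its part in the Socs3 result was not tested. The exception was cluster 6 of the alveolar fibroblasts, where the sum was 19191 CPM in Cherry_Positive and 18508 CPM in Cherry_Negative, while Socs3 was 339 and 560 CPM, a ratio of 0.605 (0.513 to 0.716).

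**Figure D1:**
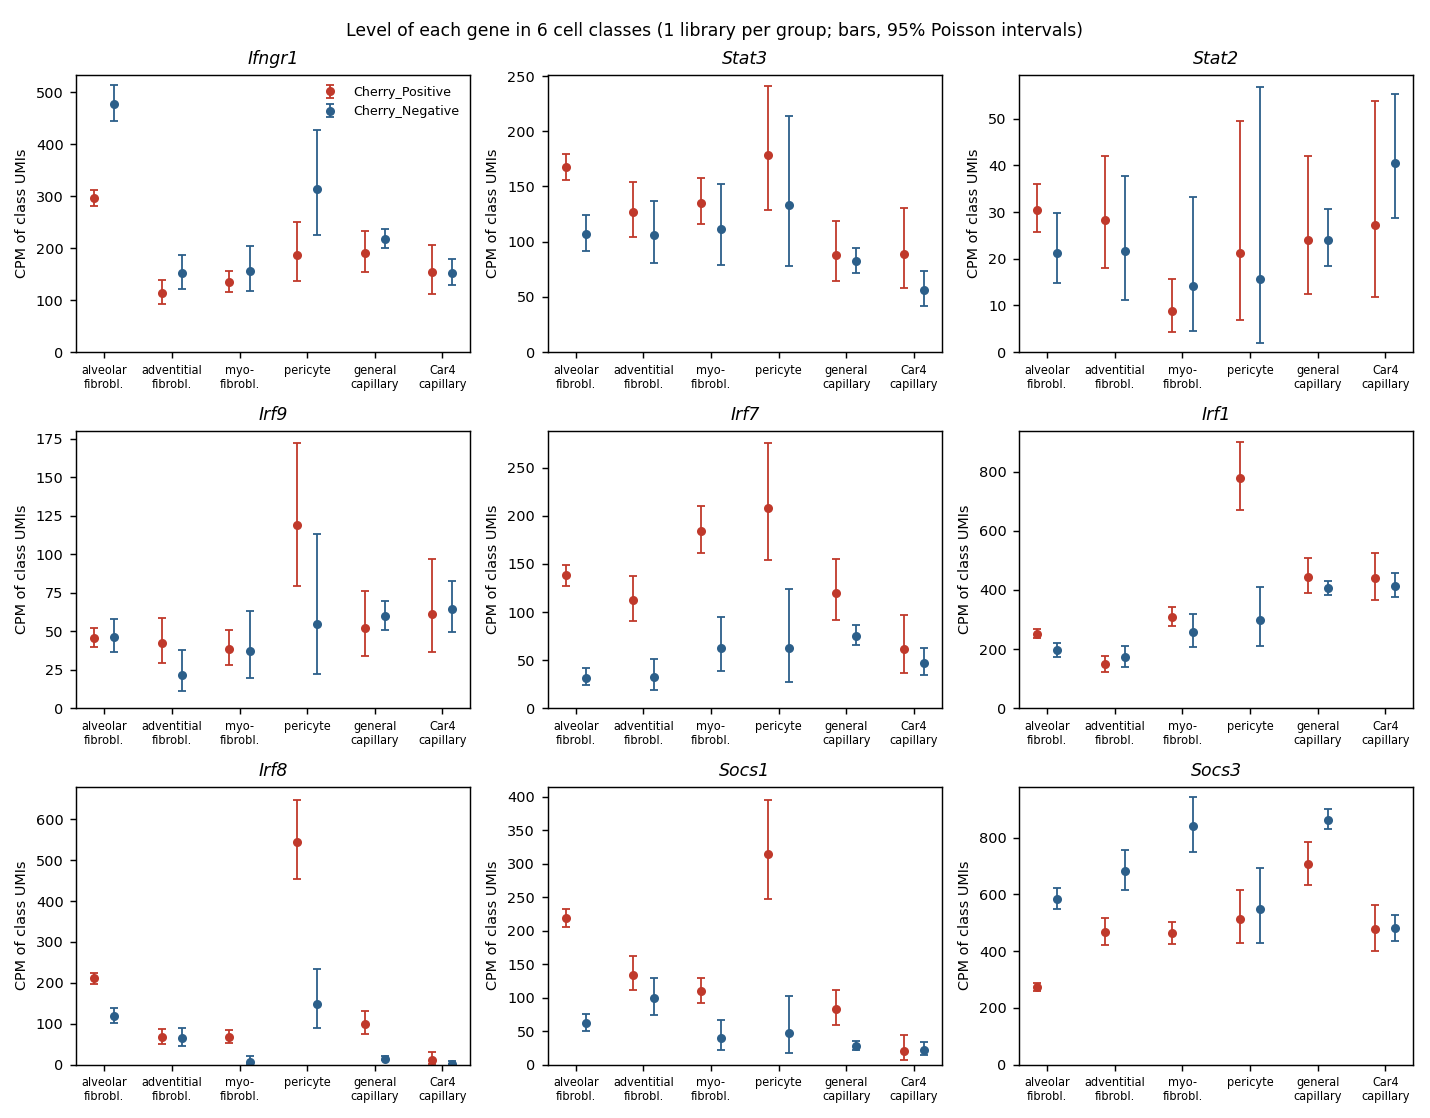
Level of each of the 9 genes in CPM of all UMIs of the class (vertical axes, from 0) in 6 cell classes (horizontal axes), with Cherry_Positive in red left of Cherry_Negative in blue, 1 library each; bars are 95% Poisson intervals. In Cherry_Positive pericytes Irf1 (778 CPM), Irf8 (544 CPM) and Socs1 (315 CPM) stand above every other class shown, while Socs3 is lower in Cherry_Positive than in Cherry_Negative fibroblasts.

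A gene was counted where it had at least 10 UMIs over both libraries of a class, and was called where the levels differed at least 2-fold. In alveolar fibroblasts 2 of 9 members were called higher, Irf7 and Socs1, and 1 lower, Socs3, where 7.28% of 11456 genes were called higher and 9.79% lower. The median log2 ratio of the members was 0.50, and that of all genes -0.09. In adventitial fibroblasts only Irf7 was called, higher, beside 5.85% of genes called higher and 7.78% lower. In myofibroblasts Irf7, Irf8 and Socs1 were called higher, beside 8.65% higher and 11.1% lower. In pericytes 5 of the 8 members counted were called higher, Irf1, Irf7, Irf8, Irf9 and Socs1, beside 10.1% higher and 11.5% lower, and the median of the members was 1.20. The Irf9 call there rested on 28 and 7 UMIs, and its interval held 1. In general capillary cells Irf8 and Socs1 were called higher, beside 4.53% higher and 8.9% lower. In Car4 capillary cells none of the 8 members counted was called, beside 4.44% of genes higher and 7.72% lower, and their median was 0.01. Scaling by trimmed means uses log2 factors of -0.14 for alveolar fibroblasts, -0.20 for myofibroblasts and -0.25 for pericytes, so that every log2 ratio of the class is higher by that size. With it 55.0% of all calls of alveolar fibroblasts were higher ones, against 42.6% without it, and 60.2% against 43.8% of those of myofibroblasts and 66.4% against 46.8% of those of pericytes. Socs3 in alveolar fibroblasts was then no longer called, at a ratio of 0.513, and Irf9 in adventitial fibroblasts was called higher, at 2.08, while the other calls of members stood.

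**Figure D2:**
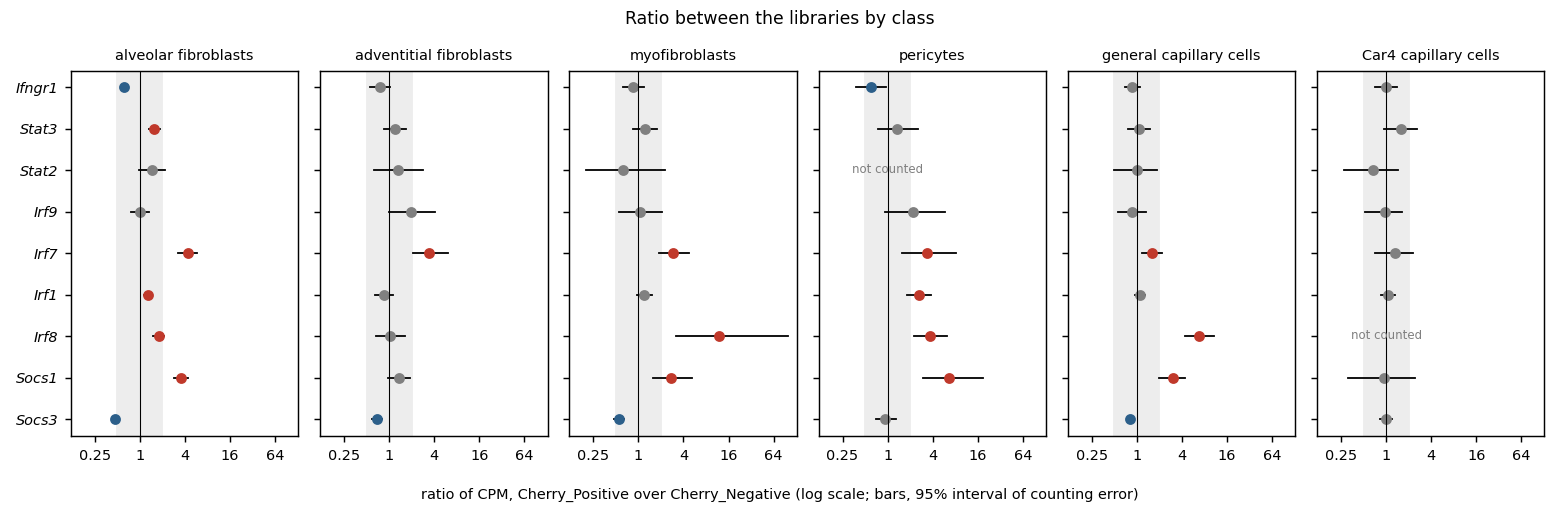
Ratio of CPM, Cherry_Positive over Cherry_Negative (horizontal axis, log scale), for the 9 genes (rows) in 6 classes (panels), with bars for the 95% interval of counting error and grey shading for less than 2-fold; red points have intervals above 1, blue points below 1. Irf7 lies above 1 in every class and Socs1 in 4 classes by its interval, Socs3 lies below 1 in 4, and in Car4 capillary cells every interval of the 8 genes counted holds 1.

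Pericytes and Car4 capillary cells were 1 cluster each, and the other classes held several, so their ratios are given here by cluster. Irf7, Irf8 and Socs1 were among the genes used for clustering, so that their levels by cluster are a description. Most Cherry_Positive alveolar fibroblasts lay in clusters 5 (298 cells, led by Saa3, Cxcl10 and Cxcl9) and 8 (237 cells, led by Fst and Tnc), and most Cherry_Negative ones in cluster 2 (322 cells, led by Slc7a10 and Tcf21). Cherry_Positive cells of cluster 5 had 469 CPM of Irf1, 296 CPM of Irf7, 380 CPM of Irf8 and 450 CPM of Socs1. They made up 32.5% of the UMIs of Cherry_Positive alveolar fibroblasts and held 60.3% of their Irf1 UMIs, 69.8% of their Irf7, 58.6% of their Irf8 and 67.1% of their Socs1 UMIs, but 29.3% of their Socs3 and 26.4% of their Ifngr1 UMIs. The 18 Cherry_Negative cells of cluster 5 had 447 CPM of Irf1 from 21 UMIs and 298 CPM of Irf8 from 14. They made up 2.95% of the UMIs of Cherry_Negative alveolar fibroblasts. Of the 51 Irf7 and 98 Socs1 UMIs of that class they held 11.8% and 7.14%. On these few UMIs their levels of Irf7 and Socs1 were below those of the Cherry_Positive cells of the cluster. Cherry_Positive cells of cluster 8 had 192 CPM of Socs3, the lowest level among the fibroblast clusters shown in the plot of levels by cluster.

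Within clusters 2 and 6, the alveolar fibroblast clusters with at least 20 cells of each library, the ratios were mostly nearer 1 than those of the class. Clusters 5 and 8, with 18 and 16 Cherry_Negative cells, are not covered by this statement. In cluster 2 Irf1 was lower in Cherry_Positive, at 130 and 205 CPM (ratio 0.631, 0.466 to 0.843), and Socs1 had 36.1 and 49.9 CPM with an interval that held 1. Irf8 had 117 and 116 CPM there. Irf7 had 44.6 and 24.9 CPM in cluster 2 (1.79, 0.952 to 3.33) and 45.2 and 36.4 CPM in cluster 6 (1.24, 0.687 to 2.38), so that both intervals held 1. Ifngr1 had 501 and 536 CPM in cluster 2 with an interval that held 1, and was lower in cluster 6, at 298 and 373 CPM (0.799, 0.658 to 0.974). Stat3 remained higher in cluster 2, at 146 and 96.7 CPM (1.51, 1.10 to 2.08), but not by its interval in cluster 6, at 150 and 136 CPM. Socs3 was lower in both, with ratios of 0.747 (0.636 to 0.874) and 0.605 (0.513 to 0.716). No member was called higher in cluster 2 or in cluster 6. With the clusters weighted alike in both libraries, an alternative chosen after the clusters were seen and resting on 18 and 16 Cherry_Negative cells in clusters 5 and 8, no member of the 9 was called higher in alveolar fibroblasts, and the log2 ratio of Irf1 turned to -0.44 and that of Irf8 to -0.016.

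Myofibroblasts and general capillary cells also held clusters with high levels of these genes. Cluster 17, with 41 Cherry_Positive and 1 Cherry_Negative cells led by Cxcl9 and contractile genes, had 486 CPM of Irf7, 336 CPM of Socs1 and 190 CPM of Irf8. It held 66.5%, 77.4% and 71.4% of the UMIs of these genes in Cherry_Positive myofibroblasts, and 25.2% of all their UMIs. When each library was clustered by itself these 41 cells took the smooth muscle name, and in the myofibroblasts that remained Irf7 and Socs1 had log2 ratios of -0.07 and -0.14. In cluster 4, the myofibroblasts of both libraries, Irf7 had 82.5 and 52.3 CPM (1.58, 0.936 to 2.81) and Socs3 520 and 856 CPM (0.607, 0.524 to 0.704). Irf8 remained higher in Cherry_Positive there, at 25.7 and 5.81 CPM from 24 and 2 UMIs (4.43, 1.10 to 38.7).

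Cluster 13 of the general capillary cells, led by Ido1, Batf2 and Gbp4, was present in both libraries with 33 Cherry_Positive and 63 Cherry_Negative cells, and of the members shown here the ratio was off 1 by its interval for Irf8 and Socs3. Irf1 had 775 and 726 CPM, Irf7 317 and 287 CPM, and Socs1 195 and 158 CPM, all with intervals of the ratio that held 1. Irf8 had 323 and 146 CPM (2.21, 1.33 to 3.74) and Socs3 512 and 732 CPM (0.699, 0.519 to 0.937). In cluster 0, the larger capillary cluster, no Irf8 UMI was found in Cherry_Positive cells, which allows up to 16.1 CPM, against 4.66 CPM in Cherry_Negative. Socs1 had 48.3 and 18.6 CPM there, from 9 and 32 UMIs (2.60, 1.09 to 5.56). In cluster 7, the remaining capillary cluster, Irf7 was lower in Cherry_Positive, at 24.4 and 84.0 CPM from 4 and 65 UMIs. Irf1 was lower there too, at 250 and 364 CPM (0.685, 0.481 to 0.953). Cluster 13 held 96.0% of the Irf8 UMIs and 70.7% of the Socs1 UMIs of Cherry_Positive general capillary cells, and 64.1% and 37.0% of those of Cherry_Negative. When each library was clustered by itself, 23 of its 33 Cherry_Positive cells were left without a name, and no member was called higher in general capillary cells. In cluster 9 of the adventitial fibroblasts Irf7 remained higher, at 117 and 24.7 CPM (4.75, 2.46 to 10.2), and Irf1 was lower, at 141 and 202 CPM (0.698, 0.518 to 0.944).

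**Figure D3:**
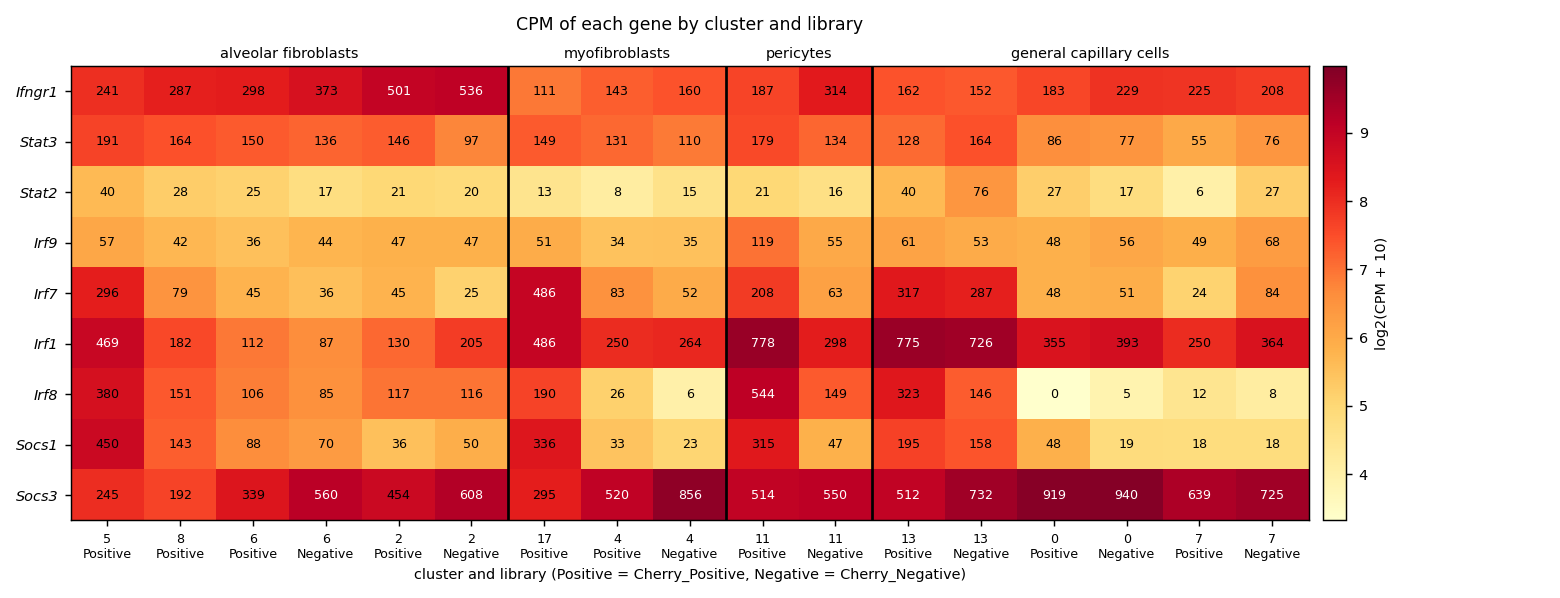
Level in CPM (numbers; colour, log2(CPM + 10)) of the 9 genes (rows) in clusters of 4 classes (columns), with Cherry_Positive left of Cherry_Negative for each cluster that has at least 20 cells in that library. Irf1, Irf7, Irf8 and Socs1 are high together in cluster 5 (469, 296, 380 and 450 CPM in Cherry_Positive), in cluster 17 and in both libraries of cluster 13.

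Within single cells, the members were also counted together. After thinning to 2000 UMIs, 39.7% of 247 Cherry_Positive alveolar fibroblasts with an Irf1 UMI also held Socs1 (exact 95% interval 33.5% to 46.1%), against 18.2% of 604 without Irf1 (15.2% to 21.5%). In Cherry_Negative alveolar fibroblasts the shares were 8.91% of 101 and 10.2% of 303 cells. For Socs3 the shares were closer, for 26.8% of 284 Cherry_Positive cells with Socs3 held Socs1 and 23.3% of 567 without it did. In Cherry_Positive pericytes 28 of 38 cells with Irf1 also held Irf8 (73.7%), against 7 of 24 without Irf1 (29.2%). In Cherry_Negative pericytes they were 3 of 8 (37.5%) and 6 of 18 (33.3%). A cell held on average 2.98 of the 9 genes in Cherry_Positive and 2.12 in Cherry_Negative pericytes, 2.15 and 2.05 in alveolar fibroblasts and 1.72 and 1.56 in Car4 capillary cells. Carcinoma-like cells of the Cherry_Positive library held 0.422. Cells below 2000 UMIs were left out, and they were unevenly spread. They were 2 Cherry_Positive and 24 Cherry_Negative pericytes, and 3 and 82 Car4 capillary cells. Cells of 1 library are not replicates, and these shares describe the libraries only.

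The rest of the pathway was read from 8 lists, which were chosen with earlier results of these data known. In alveolar fibroblasts their counts stand beside 7.28% of all genes called higher and 9.79% lower. A list of 20 ligands covered the interferon and gp130 receptors, but also held Il4, Il10, Il13 and Il15, which use other receptors. In alveolar fibroblasts 6 of the 20 ligands had enough UMIs. Of these 4 were called higher and none lower. Il6, the founding gp130 cytokine, had 548 CPM in Cherry_Positive and 187 CPM in Cherry_Negative (2.92, 2.59 to 3.31). Lif, a cytokine of the same family, had 74.1 and 11.3 CPM (6.57, 4.09 to 11.2), and Il11 and Clcf1 rested on 20 and 11 UMIs. Of 15 receptors 3 were called higher and 2 lower. This list too held chains of other cytokine receptors, among them Il15ra, Il13ra1 and Il4ra. Il15ra, the interleukin-15 binding chain, had 27.7 and 5.02 CPM (5.52, 2.72 to 13.1), whereas Il6ra, the interleukin-6 binding chain, had 19.8 and 56.4 CPM (0.352, 0.260 to 0.476).

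Of 7 Janus kinases and other STATs reported, 1 was called higher in alveolar fibroblasts and none lower. It was Jak2, a kinase of the interferon gamma receptor and of gp130, with 24.0 CPM in Cherry_Positive and 8.15 CPM in Cherry_Negative (2.94, 1.65 to 5.70). Jak1, which serves the same receptors and that of type I interferon, had 123 and 95.3 CPM (1.29, 1.07 to 1.55). Of 6 other IRFs only Irf5 was called, higher, with 37 and 2 UMIs, a gene named here after its values were seen. Of 16 other negative regulators Usp18, which restrains the type I interferon receptor, had 50.6 and 13.2 CPM (3.84, 2.45 to 6.33), and Ptpn2, a phosphatase of Janus kinases and STATs, 46.7 and 17.6 CPM (2.66, 1.79 to 4.09). Pias1 was called lower, at 16.6 and 35.7 CPM. Of 15 sensors and adaptors of nucleic acid recognition 4 were called higher and 2 lower, with Zbp1 at 235 and 40.8 CPM (5.76, 4.48 to 7.52).

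Of 17 ISGF3 targets 14 were called higher in alveolar fibroblasts and none lower, with a median log2 ratio of 1.67. Isg15, a ubiquitin-like protein, had 540 CPM in Cherry_Positive and 90.3 CPM in Cherry_Negative (5.98, 5.05 to 7.12), and Rsad2, an antiviral enzyme, had 311 and 1 UMIs. Of 16 Stat3 targets 7 were called higher and none lower, with a median of 0.85, and Timp1, an inhibitor of metalloproteinases, had 2189.7 and 235 CPM (9.31, 8.40 to 10.4). The Stat3 target list shares Il6 with the ligand list and Il4ra with the receptor list, so Il6 is counted as higher in both of its lists. With the clusters weighted alike, 8 ISGF3 targets and 4 Stat3 targets were called higher. Rsad2 and Timp1 of these lists were among the 10 leading genes of cluster 5, and Saa3, also a listed Stat3 target, led it.

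In general capillary cells, where 4.53% of all genes were called higher and 8.9% lower, of 17 ISGF3 targets 4 were called higher and none lower (median 0.55). Rsad2 had 54.1 CPM in Cherry_Positive and 10.52 CPM in Cherry_Negative (5.15, 2.92 to 9.06). Of 14 Stat3 targets 5 were called higher and 1, Lcn2, lower, at 8.02 and 33.4 CPM. Timp1 had 66.2 and 8.26 CPM (8.01, 4.53 to 14.4). Of 7 kinases and STATs reported none was called higher and 2, Tyk2 and Stat6, lower. Of 14 sensors and adaptors none was called higher and 3 lower. These were Myd88 at 18.0 and 38.7 CPM, Tlr3 at 14.0 and 28.5 CPM and Mavs at 6.01 and 14.6 CPM. Higher and lower calls were 2 and 0 of 4 ligands, 1 and 0 of 13 receptors, 0 and 0 of 5 other IRFs, and 1 and 1 of 16 negative regulators. When each library was clustered by itself, no member of the ISGF3 target list was called higher. In Car4 capillary cells 0 of 13 ISGF3 targets and 2 of 12 Stat3 targets were called higher.

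**Figure D4:**
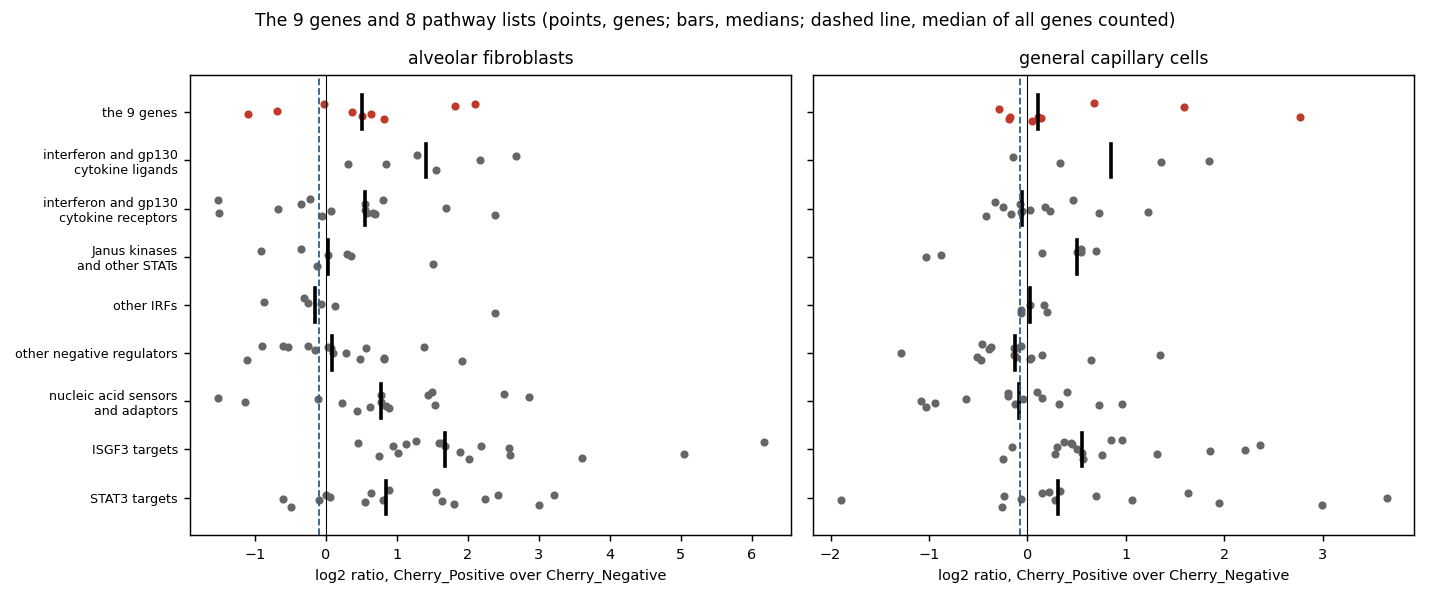
Log2 ratio of CPM, Cherry_Positive over Cherry_Negative (horizontal axes, 0.5 UMI added to each sum), of the 9 genes (red) and of the members of 8 pathway lists (grey) with at least 10 UMIs, in alveolar fibroblasts and general capillary cells; black bars are medians and the dashed line is the median of all genes counted. The ISGF3 targets have medians of 1.67 in alveolar fibroblasts and 0.55 in general capillary cells, while the 9 genes have medians of 0.50 and 0.11.

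Across 17 profiles of a class in a library, with at least 50 cells each, the pattern of each member was set against 6210 genes by Pearson's r of log2(CPM + 10), as a description of profiles that share libraries and depth. Irf1 was most like Rtp4 (r = 0.948) and H2-T23 (0.935), Irf7 most like Gbp5 (0.929) and Isg15 (0.926), and Irf9 most like Oasl2 (0.915) and Rtp4 (0.901). Irf8 was most like Ifitm1 (0.927), and Socs1 was second, at 0.865. Socs1 itself was most like Ostc (0.899) and Tubb6 (0.882). Socs3 was most like Sbf2 (0.917) and Mef2c (0.910), and Ifngr1 like Nisch (0.946) and Iscu (0.890), with Dusp1 next (0.862). Stat3 was most like Hspa1a (0.868), a heat shock gene, and Stat2 like Rgl1 (0.874). Among the members, r was 0.897 for Irf1 and Irf9 and 0.741 for Irf7 and Socs1, whereas Socs1 and Socs3 had 0.285. Socs3 had 0.795 with Irf1 and 0.175 with Irf8, while Socs1 had 0.468 with Irf1 and 0.865 with Irf8.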

How the data were processed

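The matrices hold raw counts of UMIs per gene and barcode as deposited by the authors. Per the submitters' processing notes, Cell Ranger 2.1.1, Seurat 4.0.2, R 4.0.3 and mm10 were used, and their parameters were not found in the labels. Per the labels, Chromium 3' libraries were sequenced.

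The scripts ran in Python 3.11.15 with pandas 2.3.3, scipy 1.17.1 and numpy 2.4.6. A cell was kept if it had at least 500 genes and at most 10% of its UMIs from mitochondrial genes, which removed 56 Cherry_Positive and 50 Cherry_Negative barcodes. With the expected share set to 2%, Scrublet (scanpy 1.11.5) marked only 4 (0.226%) and 7 (0.249%) cells, so doublets largely remain untreated. Both libraries were clustered together by leidenalg 0.10.2 (resolution 1, 15 neighbours, 30 components, 2000 variable genes), without batch correction.

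A cluster took the class with the highest mean marker level times share of markers detected, with at least 3 detected. It stayed unnamed where its 10 leading genes held more markers of another lineage. This ranking, and leaving haemoglobin out of leading genes, were decided after the clusters were seen. Names are rebuilt and may differ from the study's. The members, the lists and the markers were chosen with earlier results of these data known.

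UMIs were summed per class and library. Exact 95% intervals were used throughout, Poisson for sums and binomial for cell shares, and for a ratio the binomial interval of the Cherry_Positive share of both sums was converted. The limit for 0 UMIs was 3 counts. Log2 ratios had 0.5 added to each sum. No p-value was computed. The list genes named were up to 4 per list and class, ranked by the interval bound nearest 1, with at least 30 UMIs and 20 CPM, and those called in counts of 5 or fewer were named after their values were seen. The 3 most alike genes per member came from genes of at least 50 CPM in 1 profile. The list symbols Mx2 and Cebpd were not used, and 1 further gene and 1 list are not reported here. Gene positions are from GENCODE M21, promoters from RefSeq. Alternatives were no or stricter cell filters, doublets kept, resolution 0.5 and 2, separate clustering, members and lists left out of clustering, trimmed-mean scaling, 5% free RNA subtracted, the top cell left out, cells weighted equally, UMI minimums of 1 and 30, and thinning to 1000 UMIs or none. Thinning left out cells with fewer UMIs than the depth drawn. The expected share over all draws was added after the data were seen. Figures were drawn with matplotlib 3.10.9.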

Additional observations from a re-analysis of the deposited data

How the results depend on the processing

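No paired analysis was possible because each group has 1 library. No member's ratio that was called or off 1 by its interval changed sign in the 6 classes with no cell filter, the stricter filter, doublets kept, resolution 0.5 or 2, the members and lists left out of clustering, 5% free RNA subtracted, the top cell left out, trimmed-mean scaling or cells weighted equally. The call counts moved as follows. In adventitial fibroblasts 2 members instead of 1 were called higher with doublets kept, at either resolution, with separate clustering, trimmed-mean scaling, 5% free RNA subtracted or the top cell left out. The second was Irf9 at a ratio of 2.08 under trimmed-mean scaling, which also ended the call of Socs3 in alveolar fibroblasts (0.513). Car4 capillary cells gained 1 called member at a minimum of 1 UMI. Separate clustering, in which cluster 17 took another name and most of Cherry_Positive cluster 13 had none, left 1 called member in myofibroblasts and 0 in general capillary cells. It turned the log2 ratio of Irf7 to -0.065 and of Socs1 to -0.14 in myofibroblasts and of Irf7 to -0.35 in general capillary cells. There it also left 1 ligand, 0 receptors and 0 ISGF3 targets (median -0.13) called higher.

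The next alternatives were chosen after seeing the data. Their counts are of higher calls only. Shares of all genes called are given only for the whole classes under the main settings, so the counts here and under separate clustering have none beside them. Taken by themselves, clusters 2 and 6 of the alveolar fibroblasts had 0 members called higher, clusters 0 and 13 of the general capillary cells 1 each, cluster 7 had 0 and cluster 4 of the myofibroblasts 1. The median log2 ratio of the members was 0.012 in cluster 2 and -0.41 in cluster 7. In cluster 2 Irf1 had -0.66 and Socs1 -0.44, and in cluster 7 Irf7 had -1.63. In cluster 7 Irf7 (ratio 0.290, 0.077 to 0.779) and Stat2 (0.224, 0.005 to 1.40, from 1 and 21 UMIs) were past 2-fold lower. With clusters weighted alike, 0 members were called higher in either class, the median of the members in alveolar fibroblasts was 0.039, and the log2 ratio was -0.44 for Irf1 and -0.016 for Irf8 there and -0.24 for Irf7 in general capillary cells. In alveolar fibroblasts this left 0 other IRFs, 1 negative regulator, 8 ISGF3 targets (median 0.85) and 4 Stat3 targets (0.59). In general capillary cells it left 0 ISGF3 targets (0.012). Without cluster 7, whose name rested on leaving haemoglobin out, general capillary cells had 2 receptors, 0 negative regulators, 1 sensor and 7 ISGF3 targets called higher.

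In alveolar fibroblasts the receptor median was 0.082 under the stricter cell filter and 0.070 at a minimum of 1 UMI, the Stat3 target median was 1.61 with free RNA subtracted, and 2 ligands were called higher at 30 UMIs or with the top cell left out. In general capillary cells 1 sensor instead of 0 was called higher under the stricter filter, with doublets kept or with trimmed-mean scaling, 3 Stat3 targets with free RNA subtracted, 2 receptors at 1 UMI, 1 ligand at 30 UMIs or with cells weighted equally, and 2 ISGF3 targets at 30 UMIs. Apart from separate clustering and a composition held fixed, the cause of these shifts was not tested. Of the shares of cells with a UMI at 1000 UMIs, without thinning or as the expectation over all draws at 2000 UMIs, 192 lay within the interval of the share drawn at 2000 UMIs and 132 outside it. Depth limits Stat2 everywhere and Irf9 in pericytes, and Cherry_Negative pericytes rest on 50 cells.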
